A study of Triticum dicoccoides with 12 samples.

Results

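Sucrose synthase and glucose-6-phosphate dehydrogenase (G-6-PDH) are each covered on the wheat oligonucleotide array by 3 probe sets, placed at the 5′ end, in the middle and at the 3′ end of the transcript. These 6 probe sets, of 61290 in the table, were taken by the names in their identifiers. No measured value entered that rule, but it was set with earlier results of these data known. They belong to the array's own control probe sets for wheat transcripts. The suffix of the G-6-PDH identifiers marks probe sets whose probes match more than one transcript of the array's design, so that their signal may sum several closely related transcripts, and no probe set is assigned here to a single gene copy of this tetraploid wheat.

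Leaf-like organs (phyllome) of wild emmer wheat, Triticum turgidum subsp. dicoccoides, were profiled at 10 weeks of age in reproductive growth. The genotypes were the drought-resistant Y12-3 (R) and the drought-susceptible A24-39 (S), and each was sampled under good watering and under terminal drought, with 3 arrays in each of the 4 groups (12 arrays). All plants grew in a mixture of quartz sand and peat. The labels call the 3 samples of a group replicates without saying that they were different plants. The p-values therefore rest on the spread among these samples, and part of that spread may be technical.

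Sucrose synthase splits sucrose, with UDP, into UDP-glucose and fructose in a reversible reaction. It is best known from tissues that import sugar, where its products feed cell wall, starch and respiration. G-6-PDH catalyses the first committed step of the oxidative pentose phosphate pathway, which makes NADPH and pentoses, and in green leaves it is known as an enzyme that light switches off in the chloroplast. Both transcripts therefore stand at points where hexose and sucrose are drawn into different uses.

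The values are MAS5 signals on a linear scale that had been brought to the same trimmed mean, near 500.2, on each array. Array medians ran from 58.61 to 151.6, the highest being well-watered R replicate 3. The noise level was set at a signal of 129, the 95th percentile of 23 probe sets that target no wheat transcript. Their highest signal was 350, so a signal above 129 can still be noise. The green leaf genes petC, a subunit of the photosynthetic cytochrome b6f complex, and FBP, fructose-1,6-bisphosphatase, were above this level on 12 of 12 arrays at their brighter probe sets, as far as the leaf label could be checked.

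Terminal drought raised sucrose synthase at every position of the transcript in both genotypes. At the 3′ probe set, the signal in well-watered R was 3470, 2724 and 3269 in replicates 1 to 3, and under drought it was 25067, 14942 and 14397. In S the same probe set gave 3875, 2578 and 5277 with good watering and 20598, 13117 and 17312 under drought. Every drought array lay above every well-watered array of its genotype, a separation that 17.9% of all tested probe sets showed in R and 21.5% in S. The lowest drought signal of all, 13117 in S, was still above the highest well-watered signal of all, 5277, also in S.

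On the scale of log2(signal + 16), the 3′ probe set rose by 2.48 ± 0.29 (SE) in R, a 5.56-fold change (adjusted p = 2.1e-05, limma), and by 2.15 ± 0.29 in S, a 4.44-fold change (adjusted p = 8.4e-05, limma). Adjusted p-values are Benjamini-Hochberg values over 38421 tested probe sets, with a threshold of 0.05. In R, 3 of the 3 sucrose synthase probe sets passed as higher against a background of 13.6% of all tested probe sets, and in S 3 of 3 against 13.4%. Only 3.26% of the tested probe sets had a higher change than the 3′ probe set in R, and 4.8% in S.

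**Figure D1:**
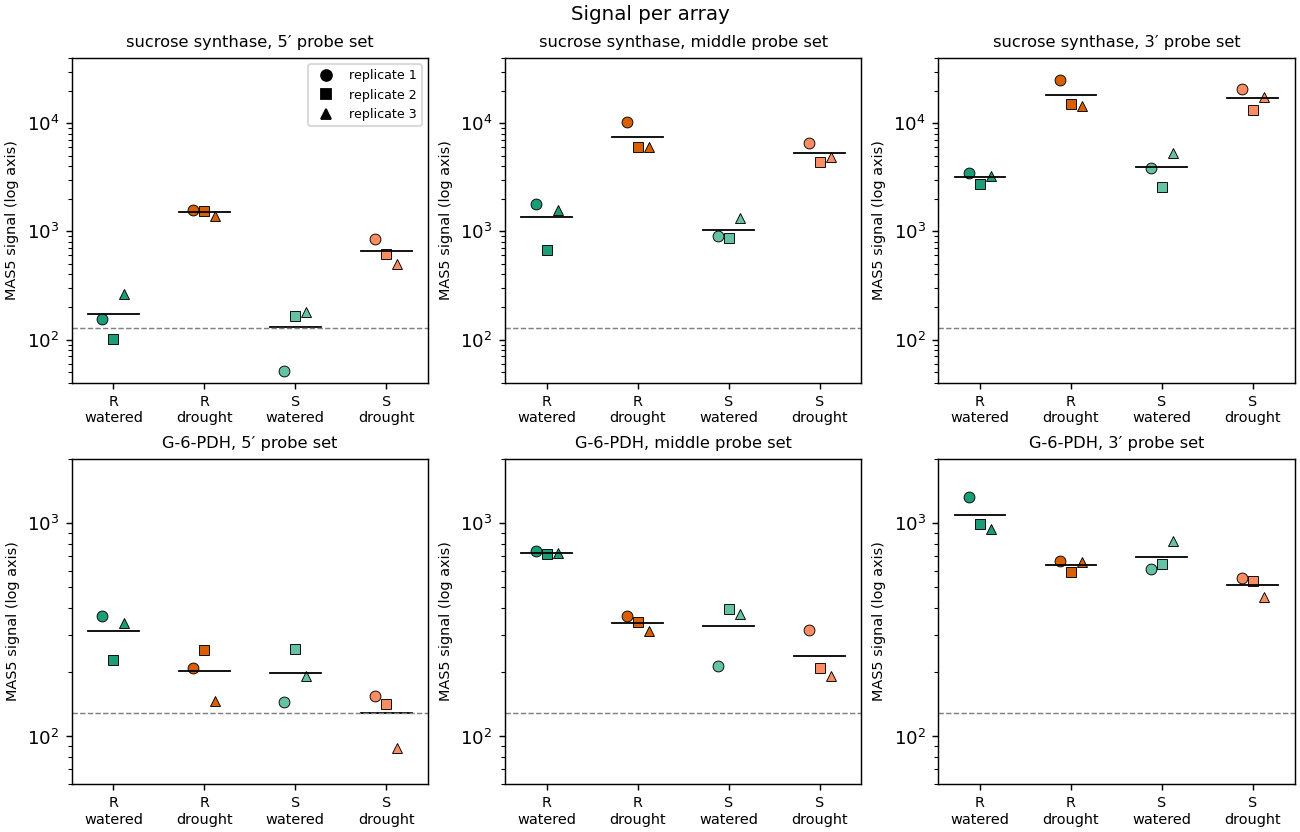
MAS5 signal (log axis) of each sucrose synthase and G-6-PDH probe set on each of the 12 arrays; symbols mark replicates, short lines the group means (n = 3) and the dashed line the noise level of 129. Sucrose synthase was higher on every drought array than on any well-watered array of the same genotype, at all 3 positions; G-6-PDH was highest in well-watered R, with overlap of single arrays at the 5′ probe set.

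The middle probe set of sucrose synthase gave the same picture at a lower signal. With good watering it measured 1811, 669 and 1571 in R, and under drought 10192, 6054 and 6042. In S it went from 901, 878 and 1335 to 6567, 4425 and 4908. The groups did not overlap within either genotype, as was so with drought higher for 17.9% of tested probe sets in R and 21.5% in S. The spread was widest in well-watered R, where replicate 2 was the lowest array (1350 ± 602, SD, n = 3).

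The changes were 2.52 ± 0.35 in R (5.74-fold, adjusted p = 8.1e-05, limma) and 2.34 ± 0.35 in S (5.07-fold, adjusted p = 2e-04, limma).

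The 5′ probe set was the dimmest of the sucrose synthase sets and came nearest to noise in well-watered plants. Its signals there were 154, 101 and 264 in R and 51, 164 and 179 in S, so that 1 array of each genotype lay below the noise level. All of these were under 350, the highest signal of the probe sets with no wheat target. Under drought it measured 1581, 1531 and 1398 in R and 859, 622 and 499 in S. The 3 drought arrays of R were closely grouped (1503 ± 94.4, SD, n = 3), and all 3 lay above all 3 drought arrays of S (660 ± 183), as was so for 12.1% of tested probe sets.

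Its change was 3.10 ± 0.42 in R (8.57-fold, adjusted p = 8e-05, limma) and 2.31 ± 0.42 in S (4.96-fold, adjusted p = 0.001, limma). Because part of the well-watered signals sat near noise, the size of this change is less exact than that of the other positions. With signals under the noise level set to it, the rises were 2.99 in R and 1.94 in S.

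Averaged over the genotypes, drought raised sucrose synthase by 2.70 ± 0.30 at the 5′ end, 2.43 ± 0.24 in the middle and 2.31 ± 0.20 at the 3′ end. The adjusted p-values were 5.6e-06, 2.3e-06 and 6.4e-07 (limma), against a background of 17.7% of tested probe sets called higher. Across the tested probe sets the median change was −0.322 in R and −0.0255 in S. Set against these medians, the rises were 3.42, 2.84 and 2.80 in R (5′, middle, 3′) and 2.34, 2.37 and 2.18 in S. Scaling the arrays to their spiked hybridization controls gave larger rises in R, of 4.00, 3.45 and 3.41, with all calls kept.

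**Figure D2:**
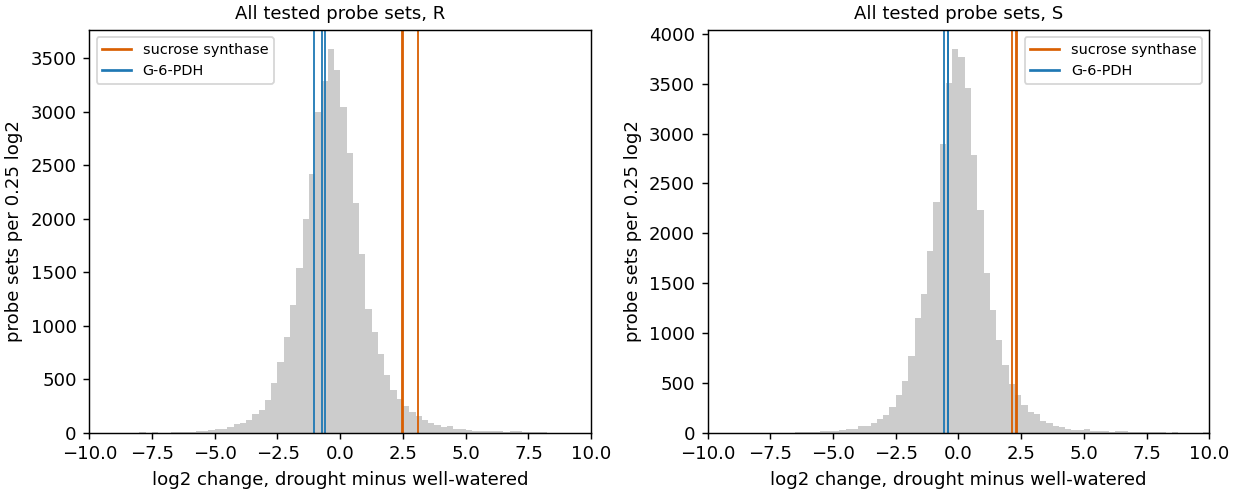
Number of tested probe sets per 0.25 of log2 change between drought and well-watered arrays in R and in S (grey, 38421 probe sets), with the 3 sucrose synthase probe sets (orange lines) and the 3 G-6-PDH probe sets (blue lines). Sucrose synthase lies in the upper tail, with changes of 2.15 to 3.10, and G-6-PDH in the body of the distribution, with changes of −1.06 to −0.41.

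G-6-PDH moved the other way and by far less. The 3′ probe set in R measured 1334, 995 and 945 with good watering and 665, 591 and 658 under drought. In S it measured 609, 645 and 825 with good watering and 555, 536 and 450 under drought. Within each genotype all drought arrays were below all well-watered arrays, as they were for 28% of tested probe sets in R and 22.3% in S. The well-watered R arrays were also above all 9 other arrays.

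The 3′ probe set fell in R by 0.74 ± 0.24 log2 units (1.68-fold lower, adjusted p = 0.026, limma). In S its difference was −0.41 ± 0.24, with a 95% interval of −0.92 to 0.10 (adjusted p = 0.23, limma), which did not pass the threshold. The call in R was lost without well-watered replicate 1 or without drought replicate 1, 2 or 3, with adjusted p of 0.1, 0.051, 0.08 and 0.054 (limma).

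The middle probe set of G-6-PDH showed the tightest group of the 6 probe sets. Its signal in R was 742, 715 and 729 with good watering (728 ± 13.2, SD, n = 3) and 366, 346 and 312 under drought. In S it was 214, 396 and 377 with good watering and 315, 210 and 192 under drought. Drought replicates 2 and 3 of R, the S drought arrays and well-watered S replicate 1 were under 350. That was the highest signal of the probe sets with no wheat target. The R groups did not overlap, as was so with drought lower for 28% of tested probe sets. The S groups did overlap, with well-watered S replicate 1 inside the range of the drought arrays.

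This probe set fell by 1.06 ± 0.30 in R (2.09-fold lower, adjusted p = 0.015, limma). In S the difference was −0.42 ± 0.30, with a 95% interval of −1.07 to 0.23 (adjusted p = 0.35, limma).

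At the 5′ probe set the R signals were 369, 228 and 340 with good watering and 209, 254 and 147 under drought, with overlap between the groups. In S they were 145, 257 and 191 with good watering and 155, 142 and 88.2 under drought, and the last of these lay below the noise level. The differences of −0.59 ± 0.37 in R and −0.57 ± 0.37 in S stayed short of the threshold (limma, adjusted p = 0.25 and 0.29). Their 95% intervals ran from −1.38 to 0.21 and from −1.36 to 0.22.

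In all, 2 of 3 G-6-PDH probe sets passed as lower in R, against a background of 19.8% of tested probe sets, and 0 of 3 in S, where 0 had an unadjusted p under 0.05 and the background was 13.8% (limma). Averaged over genotypes, 2 of 3 passed as lower against 23.7%, the middle set at −0.74 ± 0.21 and the 3′ set at −0.58 ± 0.17 (adjusted p = 0.012 for both, limma). With the array-wide median of −0.322 subtracted, the differences in R were −0.26, −0.74 and −0.42 (5′, middle, 3′), and 25.3% of tested probe sets had a lower change than the middle set.

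The G-6-PDH calls in R depended on the scaling. With median scaling the changes were −0.57 at the middle and −0.25 at the 3′ set, and with hybridization control scaling they were −0.16 and 0.17, none past the threshold (limma). In such whole-organ samples, fewer cells of a type that holds the transcript and less of it per cell cannot be told apart.

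**Figure D3:**
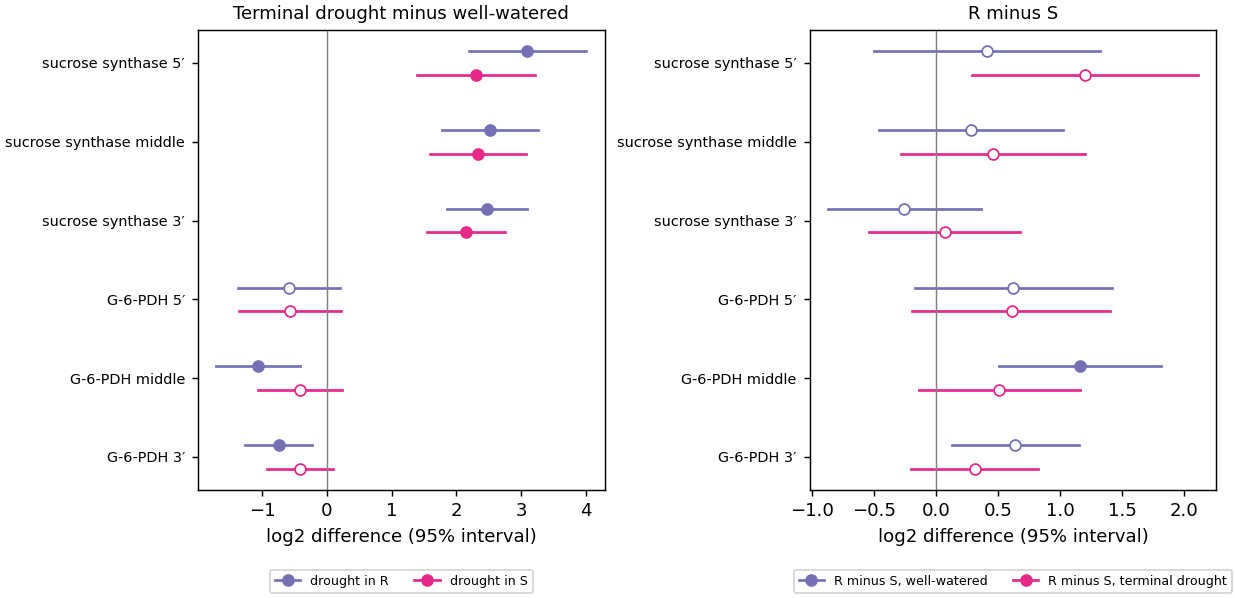
Log2 difference with its 95% interval (limma) for the 6 probe sets, for drought minus well-watered in each genotype (left) and for R minus S in each water regime (right); filled points passed an adjusted p of 0.05. All 6 drought changes of sucrose synthase are filled, G-6-PDH has 2 filled drought changes, both in R, and 1 filled genotype difference, at the middle probe set in well-watered plants.

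No genotype difference in sucrose synthase passed the threshold. In well-watered plants the R minus S differences were 0.41, 0.28 and −0.26 at the 5′, middle and 3′ probe sets (adjusted p = 0.64, 0.70 and 0.67, limma). The 3′ interval ran from −0.87 to 0.36, which still allows a difference of moderate size. Under drought the 3′ signals of the genotypes were mixed, with a difference of 0.07 and an interval of −0.54 to 0.68 (adjusted p = 0.93, limma).

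At the 5′ probe set the difference under drought was 1.20 ± 0.42 (2.30-fold higher in R) with an interval of 0.29 to 2.11, and it did not pass the threshold (adjusted p = 0.11, limma). It passed with hybridization control scaling (1.79, adjusted p = 0.026) and with signals under the noise level set to it (1.20, adjusted p = 0.036). The middle set, at 0.46 ± 0.35, did not pass (adjusted p = 0.5, limma).

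G-6-PDH was higher in R than in S in well-watered plants at the middle probe set, by 1.16 ± 0.30 (2.23-fold, adjusted p = 0.034, limma), the group means being 728 ± 13.2 and 329 ± 100 (SD, n = 3). All R arrays lay above all S arrays at the middle and the 3′ set, a separation seen for 14.5% of tested probe sets. The called set is 1 of 3 G-6-PDH probe sets, and 1 of the 6 in all, against a background of 4.36% called higher in R. The 3′ and 5′ sets measured 0.64 ± 0.24 and 0.62 ± 0.37 in the same direction without passing (adjusted p = 0.13 and 0.37, limma). The middle set's call was lost without any 1 of R well-watered replicates 1, 2 and 3 and S well-watered replicates 1 and 3, with differences of 0.89 to 1.27 and adjusted p of 0.053 to 0.14. It was also lost with median scaling (0.87, adjusted p = 0.13), hybridization control scaling (0.87, adjusted p = 0.44), poly-A control scaling (1.33, adjusted p = 0.16) and scaling to ubiquitin (1.17, adjusted p = 0.062).

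Under drought none of the 6 probe sets differed between the genotypes at the threshold (limma), and 1 of them, the 5′ sucrose synthase set, had an unadjusted p under 0.05. The background was 7.48% called in either direction. The G-6-PDH differences there were 0.61, 0.51 and 0.31 from the 5′ to the 3′ end, all with R above S.

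No difference between the drought responses of R and S passed the test for either transcript. The interaction, the drought change in R minus that in S, was 0.79 ± 0.60, 0.18 ± 0.49 and 0.32 ± 0.40 for sucrose synthase and −0.02 ± 0.52, −0.64 ± 0.43 and −0.33 ± 0.34 for G-6-PDH (5′, middle, 3′). Adjusted p-values were 0.55 to 0.99 (limma), 0 of the 6 had an unadjusted p under 0.05, and the background was 0.148%. The intervals were wide, from −0.54 to 1.19 at the 3′ sucrose synthase set and from −1.05 to 0.39 at the 3′ G-6-PDH set. The fall of G-6-PDH that passed in R and not in S is therefore not shown to differ between the genotypes.

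The ratio of the transcripts within an array does not depend on how the arrays were scaled to each other. Probe sets differ in how strongly they bind their target, so the change of the ratio between arrays is read here and not its level. At the 3′ probe sets, the signal of sucrose synthase over that of G-6-PDH was 2.60, 2.74 and 3.46 in R with good watering and 37.7, 25.3 and 21.9 under drought. In S it was 6.36, 4.00 and 6.39 with good watering and 37.1, 24.5 and 38.5 under drought. All 6 drought arrays were above all 6 well-watered arrays, with no value between 6.39 and 21.9.

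The log2 ratio rose by 3.24 ± 0.27 (SE) in R, a 9.46-fold change, and by 2.58 ± 0.31 in S, a 5.99-fold change. With the water regime permuted within each genotype, the mean rise of 2.91 had an exact two-sided permutation p of 0.005, the smallest that 400 relabellings can give. Within a single genotype, 3 arrays against 3 cannot go below an exact p of 0.1, which both reached.

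In well-watered plants the ratio at the 3′ probe sets was lower in R (2.93 ± 0.461) than in S (5.59 ± 1.37, SD, n = 3), and these groups did not overlap. Under drought it was 28.3 ± 8.32 in R and 33.3 ± 7.71 in S, and they did. The well-watered difference, 1.88-fold, went with higher G-6-PDH signal in R and lower mean 3′ sucrose synthase signal in R (3155 ± 386 against 3910 ± 1350), and it was not tested. At the middle probe sets the well-watered ratio was 1.84 ± 0.8 in R and 3.33 ± 1.02 in S (SD, n = 3). At the 5′ probe sets it was 0.545 ± 0.201 and 0.642 ± 0.292, and the groups overlapped at both positions. There the mean well-watered sucrose synthase signal was higher in R, at 1350 against 1038 (middle) and 173 against 131 (5′).

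The drought change of the ratio had the same direction at the other positions in each genotype. The ratio of the middle probe sets rose 12.4-fold in R and 6.97-fold in S, and that of the 5′ probe sets 14.5-fold and 8.70-fold. The size of the 5′ folds is uncertain, because signals of both transcripts there lay near the noise level. The mean 5′ sucrose synthase signal in well-watered plants was 173 in R and 131 in S. The mean 5′ G-6-PDH signal in S under drought, 128, was below the noise level. At each of the 3 positions the lowest drought ratio was above the highest well-watered ratio.

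**Figure D4:**
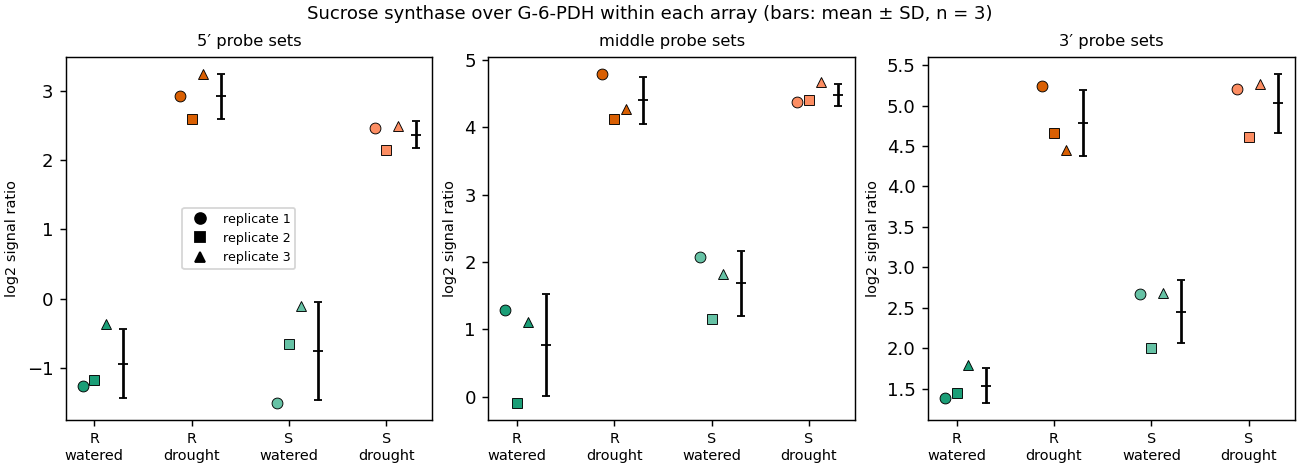
Log2 of the sucrose synthase signal over the G-6-PDH signal on each array, at the 5′, middle and 3′ probe sets; symbols mark replicates and bars give the group mean ± SD (n = 3). At the 3′ probe sets the well-watered arrays lie between 1.38 and 2.68 and the drought arrays between 4.45 and 5.27, and in all 3 panels no drought array overlaps a well-watered one.

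The probe sets along each transcript had the same direction of drought change in each genotype, and differences in its size between positions were not tested. In the labelling used, signal is usually stronger toward the 3′ end, and both transcripts had that order on all 12 arrays. Ubiquitin, described below, had the reverse order on all 12 arrays, with 3′ minus 5′ differences of −2.29 to −1.57. What sets the order was not tested. The 3′ sucrose synthase signal was above the 5′ signal in R by 4.29 ± 0.59 log2 units with good watering and 3.55 ± 0.38 under drought, and by 5.03 ± 1.15 and 4.70 ± 0.37 in S (SD, n = 3). The well-watered and drought groups overlapped in both genotypes. Under drought the 3 R arrays, at 3.29 to 3.99, all lay below the 3 S arrays, at 4.40 to 5.12. The mean 5′ signal under drought was higher in R, 1503 against 660, a difference that did not pass the threshold. This separation along the transcript was not tested, and its share among other transcripts is not known.

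The same difference for G-6-PDH was 1.82 ± 0.33 and 1.68 ± 0.47 in R and 1.83 ± 0.44 and 2.04 ± 0.27 in S (well-watered, then drought, SD, n = 3), with overlap among all groups. Ubiquitin, a further wheat control transcript with probe sets at both ends, was above noise at both on 12 of 12 arrays and gave −1.99 ± 0.37 and −2.06 ± 0.07 in R and −1.92 ± 0.16 and −2.05 ± 0.07 in S. Its change with drought, −0.07 in R and −0.13 in S, was smaller than that of sucrose synthase, at −0.75 and −0.33. At the 5′ sucrose synthase set, 1 well-watered array of each genotype lay below noise, R replicate 2 and S replicate 1. Their 3′ minus 5′ differences were 4.76 and 6.25. The other well-watered S arrays, at 3.97 and 4.88, lay within or below the range of the S drought arrays, 4.40 to 5.12. Actin, ef1a, gapdh and CYP86-TA were at or under noise at one end or both on most arrays and could not serve for this.

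Within a group, the 3 sucrose synthase probe sets deviated from their group means in the same direction on 7 of 12 arrays and the 3 G-6-PDH probe sets on 6 of 12. No such count was made for unrelated probe sets, so these counts are descriptions only. Drought replicate 1 was the highest of its group at all 3 sucrose synthase positions in both genotypes. At the 3′ set it lay above its group mean by 0.52 in R and 0.30 in S on the log2 scale. Well-watered S replicate 1 showed the widest disagreement, with −1.17 at the 5′ set against 0.05 at the 3′ set of sucrose synthase.

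**Figure D5:**
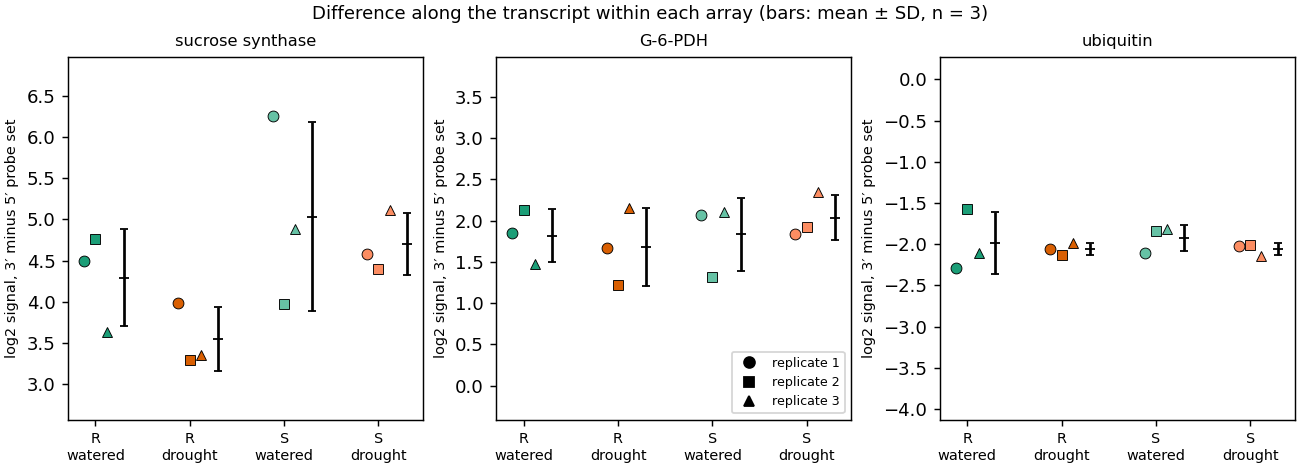
Log2 signal of the 3′ probe set minus that of the 5′ probe set of the same transcript on each array, for sucrose synthase, G-6-PDH and ubiquitin; each panel spans the same width, symbols mark replicates and bars give the group mean ± SD (n = 3). Sucrose synthase ranges from 3.29 to 6.25, with R under drought lowest, while ubiquitin ranges from −2.29 to −1.57.

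Among the other wheat control transcripts, ubiquitin was bright and changed little, with drought changes of −0.28, −0.39 and −0.35 in R and −0.02, −0.32 and −0.15 in S (5′, middle, 3′), none past the threshold (adjusted p = 0.15 to 0.96, limma). Not all wheat controls held still. The actin 3′ probe set, above noise on 9 of 12 arrays, changed by −1.08 ± 0.38 in R (adjusted p = 0.043, limma). In S it changed by −1.06 ± 0.38 (adjusted p = 0.055, limma), and averaged by −1.07 ± 0.27 (adjusted p = 0.0054, limma). The other actin sets did not pass in R or S (adjusted p = 0.15 to 0.93, limma). Scaled to ubiquitin, an alternative chosen after the data were seen, sucrose synthase rose by 3.43, 2.86 and 2.82 in R and by 2.45, 2.50 and 2.31 in S with all calls kept. G-6-PDH then measured −0.27, −0.73 and −0.41 in R and passed at no position (adjusted p = 0.65, 0.13 and 0.36, limma).

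Of the other sugar metabolism genes that were looked for, sucrose, starch and pentose phosphate genes by symbol, the platform annotation named FBP and PFK. Only 13 genes in it have a symbol that is not a locus number, so other such genes on the array could not be found. FBP, an enzyme of the Calvin cycle and of sucrose synthesis, was lower at its bright probe set, with changes of −3.20 ± 0.45 in R and −3.32 ± 0.45 in S (adjusted p = 1e-04 and 0.00011, limma), opposite in direction to sucrose synthase. PFK, phosphofructokinase of glycolysis, was above noise on 1 of 12 arrays and was not tested. A dimmer FBP probe set, above noise on 2 of 12 arrays, had changes of −2.08 ± 0.62 in R and −0.01 ± 0.62 in S (adjusted p = 0.018 and 1, limma). The leaf gene petC fell with FBP, with changes of −1.62 ± 0.29 and −1.16 ± 0.29 (adjusted p = 0.00057 and 0.0078, limma), so the level of these 2 leaf genes moved with the water regime, and their part in the changes of sucrose synthase and G-6-PDH was not tested.

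The patterns most like each transcript were found by the root mean square difference of log2 values over the 12 arrays, after each probe set was centred on its own mean. For sucrose synthase the nearest of 38415 other tested probe sets is paired with no gene here and differed by 0.258. With good watering its mean was 666 ± 124 in R against 542 ± 282 in S, and under drought 4173 ± 618 against 2944 ± 207 (SD, n = 3). The next differed by 0.276 and is also unnamed. Over all other tested probe sets the median difference was 1.55, and the sucrose synthase sets themselves differed from their own mean by 0.398, 0.172 and 0.340 (5′, middle, 3′). Each of these sets enters that mean, which lowers its difference, so these values cannot be set beside those of other probe sets.

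The nearest probe sets that the annotation pairs with a gene belonged to LOC100125713 (0.351), LOC542929 (0.379), LOC542942 (0.385), LOC542961 (0.386) and LOC543390 (0.401), ranked 42 to 125 in likeness. LOC542961 was the brightest of them, at 3338 ± 861 and 32177 ± 6570 in R and 3330 ± 1119 and 25111 ± 8401 in S (well-watered, then drought, SD, n = 3).

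For G-6-PDH the nearest was an unnamed probe set, at 0.183, followed by LOC542778 at 0.194. With good watering LOC542778 measured 2182 ± 335 in R against 1019 ± 74.9 in S, and under drought 1261 ± 223 against 901 ± 121 (SD, n = 3). Well-watered R was its highest group, as it was for G-6-PDH, which follows from its being picked for a like pattern. The next with a gene were LOC606343 (0.228), LOC542987 (0.285), LOC543172 (0.317) and LOC100037561 (0.341), against a median of 0.888 over all other tested probe sets. These likenesses are descriptions of 12 arrays and were not tested.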

How the data were processed

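RNA was labelled with biotin in 1 cycle of amplification by an Affymetrix kit, per the labels' protocols. The authors deposited 1 linear signal intensity per probe set and array; the submitters' processing notes name MAS5. No source used here gives its version or scaling. These intensities were not scaled again. They were turned into log2(intensity + 16), and folds come from that scale. Left out were 64 reporter probe sets and the control probe sets with no wheat target, while 25 control probe sets of wheat transcripts were kept. A probe set was tested if it exceeded the array median on 3 or more of the 12 arrays, which left 38421 (62.8% of candidates), all 6 described here among them. The fit used limma 3.58.1 with 1 mean per group, a trended eBayes and R 4.3.3, and p-values were adjusted within each contrast by Benjamini-Hochberg. The fit and the permutation test were tested on simulated data. The number of arrays limits the precision. Ratios and differences within an array use log2 intensities with nothing added. Permutations ran in Python 3.11.15, and figures were drawn with matplotlib 3.10.9. Genes were named from the platform annotation (1273 probe sets). The rule for named genes took the 6 probe sets, a list of sucrose, starch and pentose phosphate genes, the 5 nearest patterns with a gene and the 2 nearest of all for each transcript, and the other wheat control transcripts. petC and FBP served as leaf markers, and the annotation named no grain marker by symbol. Members, lists and rules were chosen with earlier results of these data known. Same-numbered arrays of different groups deviated from their group means with r of −0.126 to 0.181 across probe sets, so replicate numbers were not taken as pairs.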

Additional observations from a re-analysis of the deposited data

How the results depend on the processing

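The 9 drought rises of sucrose synthase (in R, in S and averaged) kept direction and call under all 11 alternatives and with each of the 12 arrays left out. The ratio of the transcripts kept both at 2.80 to 3.02 with an array left out and at 2.89 to 3.14 under its 3 alternatives, 2.91 with the replicate number as a block (exact sign-flip permutation p = 0.0312, the smallest 6 pairs can give). The calls of G-6-PDH held with quantile normalization but under none of the other scalings, with changes given at the middle and then the 3′ probe set. For drought in R, median scaling left −0.57 and −0.25, the hybridization controls −0.16 and 0.17, the poly-A controls −0.94 and −0.62, and ubiquitin (chosen after seeing the data) −0.73 and −0.41. Averaged over genotypes they were −0.47 and −0.30, −0.27 and −0.10, −0.49 and −0.32, and −0.50 and −0.33 in that order. The 5′ set in R turned to 0.29 with hybridization control scaling. With an array left out, the 3′ change in R was −0.84 to −0.59. The well-watered genotype difference at the middle G-6-PDH set lost its call at 0.87 (median and hybridization control scaling), 1.33 (poly-A), 1.17 (ubiquitin) and 1.16 with the replicate number as a block (adjusted p = 0.056, limma), the 1 call among the 6 probe sets that the block changed, and it ran from 0.89 to 1.31 with an array left out. The causes of these losses were not tested. Among differences that did not pass, the 5′ sucrose synthase set under drought passed at 1.79 (hybridization control scaling) and 1.20 (signals under the noise level set to it). Others changed sign without passing. For the genotype difference these were the middle sucrose synthase set (−0.01, median scaling) and the 3′ set under drought (−0.01, poly-A scaling, and −0.19 to 0.22 with an array left out), and the 5′ set in well-watered plants (−0.08 to 0.71 with an array left out). For the interaction they were the middle sucrose synthase set (−0.09, poly-A scaling, and −0.26 to 0.45 with an array left out), the 5′ G-6-PDH set (0.41 with median scaling, 0.39 with quantile normalization, 0.81 with hybridization control and 0.15 with ubiquitin scaling, and −0.24 to 0.18 with an array left out), the middle G-6-PDH set (−0.64, and 0.21 with hybridization control scaling) and the 3′ G-6-PDH set (0.11 with median and 0.54 with hybridization control scaling).

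In R, where 13.6% of probe sets were called higher and 19.8% lower, median scaling gave 20.2% and 11.6%, ubiquitin 17.2% and 12.9%, and the hybridization controls 22.4% and 5.44%, where the median change was 0.50. In S the poly-A controls turned 13.4% and 13.8% into 13.0% and 5.85%. Averaged, 17.7% and 23.7% became 23.2% and 17.4% (median), 22.1% and 17.3% (ubiquitin), 23.4% and 11.5% (hybridization controls) and 17.5% and 14.3% (poly-A). For R minus S in well-watered plants, 4.36% and 2.92% became 2.92% and 4.51% (median) and 3.41% and 1.26% (poly-A). Calls for drought numbered 12831 in R against 8521 with poly-A control scaling, and 10463 in S against 6588 with hybridization control scaling. Between genotypes there were 2796 calls in well-watered plants against 1638 (hybridization control) and 1796 (poly-A), and 2873 under drought against 1750 (poly-A). The interaction had 57 calls, and 18 without a trend, 126 with hybridization control scaling, 162 with median scaling, 171 with a pseudocount of 64 and 484 with signals under the noise level set to it, but 0 of the 6 probe sets passed it in any of these. With an array left out these counts ran from 1546 to 3106, from 1720 to 3063 and from 17 to 104. Scaling limits the changes of G-6-PDH, and nearness to noise the 5′ sets of both transcripts.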
